A study of Homo sapiens with 24 samples.

Results

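The genes described here are those for the proteins that hepatocytes release into blood: plasma carriers, protease inhibitors, clotting factors and complement. A list of 43 symbols was matched to the Ensembl identifiers of a table of 14585 genes, and 38 of them had a row. FETUB, ITIH3, PLG, C4A and CFB were not analysed here. The 38 comprised 12 carriers, 7 inhibitors, 13 clotting genes and 6 complement genes. RNA was sequenced from Huh7 cells, a human hepatoma line, and from A549 cells, a human lung carcinoma line, both labelled wild type. That label does not cover p53, which the authors describe as mutated in Huh7 and wild type in A549 cells. In each line a control group was set beside cells given an extract of Pulsatilla chinensis (P. chinensis), Bupleurum chinense (B. chinense) or Polyporus umbellatus (P. umbellatus), with 3 libraries per group and 24 in all. Each tissue was thus represented by 1 cell line. The extracts were made in ethanol and taken up in DMSO. The dose and time used for the sequenced cells, and whether the control cells received DMSO, are not given in the sources used here.

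Hepatocytes make most plasma proteins and pass them through the endoplasmic reticulum into blood. Many of these genes are driven by factors that mark the liver lineage, such as HNF4 and the C/EBP family. In inflammation, interleukin-6 acting through STAT3 raises positive acute phase genes such as the fibrinogen chains FGA, FGB and FGG, while negative acute phase genes such as ALB, TTR, TF and AHSG fall. Clotting factors and their inhibitors are made in the same cells, so the balance of the cascade depends on both. Hepatoma lines keep parts of this program, and AFP, the fetal counterpart of albumin, is a serum marker of hepatocellular carcinoma.

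In Huh7 cells the most uniform responses among these genes ran in opposite directions. FGA and FGB rose with all 3 extracts, while AHSG, ITIH2, A2M, SERPINC1 and C3 fell with all 3. In A549 cells, where most of these genes were near or below the limit of detection, FGA and FGB fell with all 3 extracts and C3 rose. The calls with B. chinense were the least stable. In Huh7 cells FGA, FGB, SERPINC1 and C3 each lost that call when any 1 control or B. chinense replicate was left out (edgeR adjusted p up to 0.152, 0.131, 0.0703 and 0.123), and ITIH2 lost it without B. chinense replicate 2 or control replicate 1 or 3 (up to 0.069). With P. umbellatus, ITIH2 and SERPINC1 lost their calls in Huh7 cells in a fit of only the 6 libraries compared (edgeR adjusted p = 0.0521 and 0.0585). In A549 cells the call of C3 with B. chinense was lost under 7 of 14 alternatives. Values are in CPM, the usual count scaled to a common library size, here by the TMM method within a cell line. A gene was called changed at a Benjamini-Hochberg adjusted p below 0.05 in edgeR's two-sided quasi-likelihood test, adjusted over all genes tested in the line. Fold changes are on the log2 scale and are given with their standard error.

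The windows of 250 bases before the start sites of 6 of these genes are shown because FGA, FGB and AHSG changed with every extract and because ALB and AFP are neighbours on chromosome 4. FGG is the third fibrinogen gene of the same cluster. The windows were chr4:154590743-154590992 on the minus strand for FGA, chr4:154562761-154563010 on the plus strand for FGB and chr4:154612657-154612906 on the minus strand for FGG. Those of ALB and AFP were chr4:73404037-73404286 and chr4:73435971-73436220 on the plus strand, and that of AHSG was chr3:186612810-186613059 on the plus strand. The sequences are those of RefSeq on GRCh38.p14 and read 5′ to 3′ along the gene. Capitals mark matches on either strand to a C/EBP site (TTGCNNAA) or an interleukin-6 element (CTGGGAA), and matches to the motifs did not overlap each other in these windows.
FGA: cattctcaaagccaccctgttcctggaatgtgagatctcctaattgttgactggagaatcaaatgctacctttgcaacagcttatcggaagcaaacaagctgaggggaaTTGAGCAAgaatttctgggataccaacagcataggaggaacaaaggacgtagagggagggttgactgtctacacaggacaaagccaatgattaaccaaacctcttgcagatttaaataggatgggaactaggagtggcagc
FGB: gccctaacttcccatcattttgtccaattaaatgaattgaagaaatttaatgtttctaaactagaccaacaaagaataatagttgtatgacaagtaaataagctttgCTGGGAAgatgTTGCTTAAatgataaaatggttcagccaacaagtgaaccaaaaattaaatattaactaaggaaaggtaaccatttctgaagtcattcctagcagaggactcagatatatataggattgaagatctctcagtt
FGG: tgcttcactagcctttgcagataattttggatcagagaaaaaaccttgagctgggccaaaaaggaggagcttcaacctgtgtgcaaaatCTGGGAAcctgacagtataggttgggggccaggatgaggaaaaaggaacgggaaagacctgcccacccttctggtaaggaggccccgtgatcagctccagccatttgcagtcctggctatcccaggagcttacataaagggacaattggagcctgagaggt
ALB: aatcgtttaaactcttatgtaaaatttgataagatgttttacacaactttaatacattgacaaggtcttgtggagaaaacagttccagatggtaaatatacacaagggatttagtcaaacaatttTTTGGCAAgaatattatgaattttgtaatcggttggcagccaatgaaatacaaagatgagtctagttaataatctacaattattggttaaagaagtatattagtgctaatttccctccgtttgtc
AFP: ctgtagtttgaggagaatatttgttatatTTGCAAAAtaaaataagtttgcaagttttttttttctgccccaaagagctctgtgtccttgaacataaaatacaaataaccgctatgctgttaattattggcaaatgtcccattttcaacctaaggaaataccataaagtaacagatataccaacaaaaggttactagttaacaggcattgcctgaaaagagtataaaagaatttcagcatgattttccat
AHSG: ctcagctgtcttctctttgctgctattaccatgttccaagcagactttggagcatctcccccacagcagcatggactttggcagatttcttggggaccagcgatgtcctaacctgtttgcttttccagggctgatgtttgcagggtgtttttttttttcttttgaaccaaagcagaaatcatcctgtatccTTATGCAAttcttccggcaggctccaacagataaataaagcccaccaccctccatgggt

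FGA held a C/EBP site 141 to 134 bases before its start. FGB held both motifs, and the match in FGG was to the interleukin-6 element. ALB, AFP and AHSG each held a C/EBP site. Of the 28 genes described here that had a window in the table, 11 (39.3%) held the C/EBP site, against 9.05% of all 35116 windows. The interleukin-6 element was in 4 of the 28 (14.3%: F10, FGB, FGG and HPX) and in 9.15% of all windows. These matches are descriptions of sequence and do not show binding. A2M, C1S, C3, C4B, HP, ITIH2, SERPINC1, SERPINF2, SERPING1 and TTR had no entry.

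To compare levels between genes, CPM were divided by the length of the coding sequence. The counts cover whole transcripts, so genes with much sequence outside the coding part read higher on this scale, and the ranks depend on it. The main transcript of SERPINA1 has 3006 bases with 1254 coding, and that of RBP4 has 1070 with 603 coding. Ranks by transcript length were not computed. In control Huh7 cells ALB stood first at 2600 ± 47.8 CPM per kb (SD, n = 3), and the highest ranks were mostly carriers. RBP4, the carrier of vitamin A, followed at 1440 ± 28.2 and SERPINA1, which inhibits neutrophil elastase, at 1410 ± 65 CPM per kb. The ranges of RBP4 and SERPINA1 over the 3 libraries overlapped, so their order was not resolved. AFP came next at 1190 ± 7.12 CPM per kb, followed by AMBP at 877 ± 31.3 and TTR at 593 ± 45. The fibrinogen chains differed from each other, with 292 ± 11.3 for FGA, 221 ± 13.1 for FGG and 128 ± 5.77 CPM per kb for FGB. HP, C1R and C4B were the lowest, at 1.07 ± 0.289, 0.487 ± 0.072 and 0.0479 ± 0.083 CPM per kb. HP shares sequence with HPR, and C4B is nearly identical to C4A, so their estimated counts are uncertain.

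All 38 genes had a mean above 5 counts in Huh7 cells and were tested there. They took 1.74% ± 0.0158 of all counts in control libraries (SD, n = 3), 1.35% ± 0.0274 after P. chinensis, 1.55% ± 0.0023 after B. chinense and 1.46% ± 0.108 after P. umbellatus. With P. chinensis 2 of the 38 rose and 17 fell, where 10.5% of all 13875 genes tested rose and 10.5% fell. With B. chinense 2 rose and 5 fell, where 0.519% of all genes rose and 0.757% fell. Without adjustment, 2 were higher and 15 lower with B. chinense at p below 0.05. With P. umbellatus 3 rose and 22 fell, where 19.3% of all genes rose and 17.8% fell. The median log2 fold change of the 38 was -0.31 for P. chinensis, -0.16 for B. chinense and -0.41 for P. umbellatus, and that of all genes was 0.011, -0.0001 and 0.032. In these bulk libraries, fewer cells of a kind and less RNA per cell cannot be told apart. The share of counts from mitochondrial genes also moved with the groups, from 1.93 to 2.26% in control libraries to 2.53 to 2.90% after P. chinensis, 1.94 to 2.45% after B. chinense and 2.41 to 3.91% after P. umbellatus. Its part in these results was not tested.

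**Figure D1:**
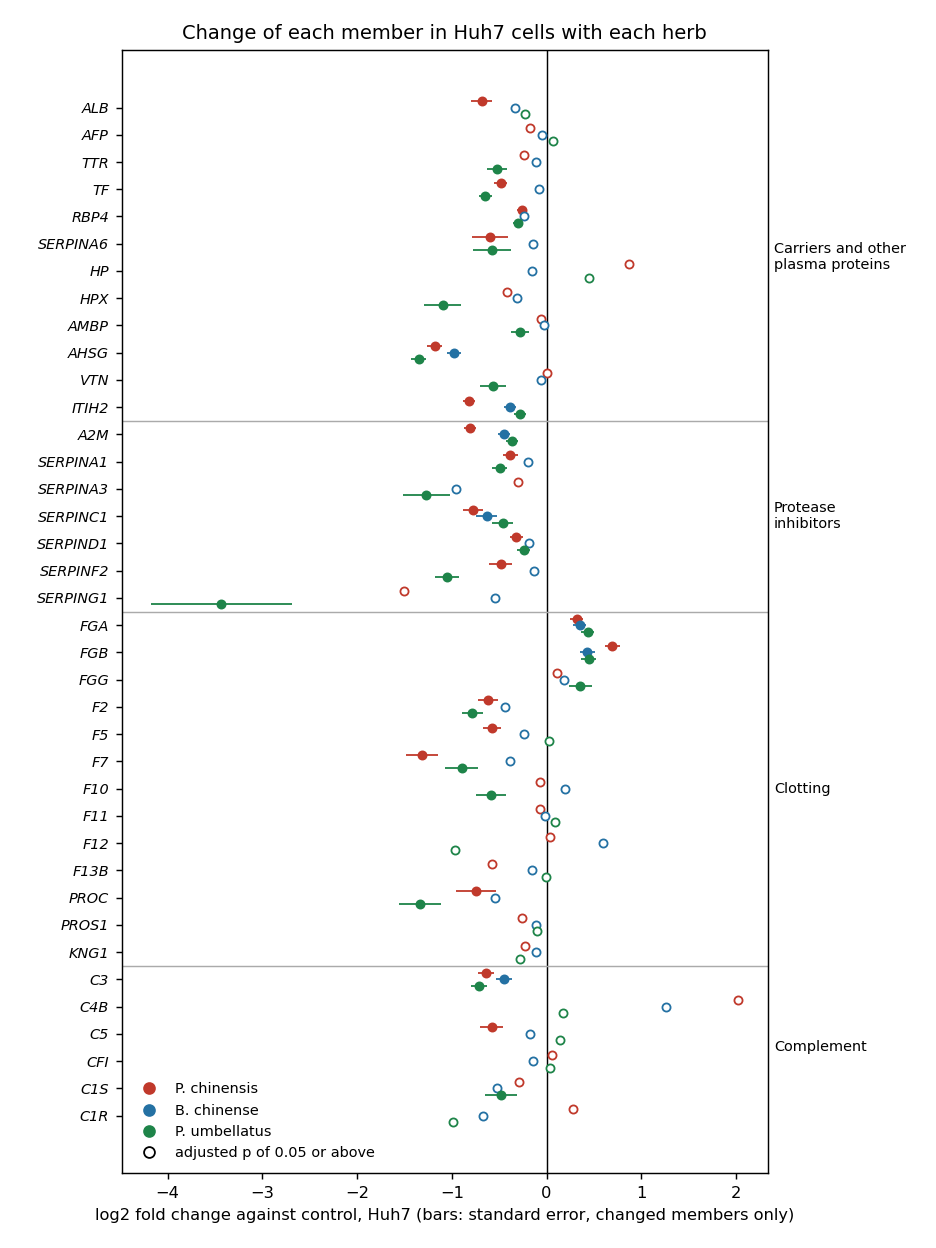
Log2 fold change against control of the 38 plasma protein genes in Huh7 cells with each extract, grouped by role, with bars of 1 standard error and filled points for genes called changed. FGA and FGB lie to the right of 0 with all 3 extracts, and AHSG lies at or below -0.98 with each.

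The 3 comparisons share the same control libraries, so their directions are not independent of each other. In the fits, 24 of the 38 genes were below 0 with all 3 extracts, and 4 were above 0 with all 3, namely FGA, FGB, FGG and C4B (a gene near 0 counts). The 5 that fell with all 3 were AHSG, ITIH2, A2M, SERPINC1 and C3. A further 9 fell with exactly 2 extracts and 11 with exactly 1. AFP, HP, PROS1, KNG1, F11, F12, F13B, C4B, CFI and C1R were called with none. The 19 genes called after P. chinensis, the 7 after B. chinense and the 25 after P. umbellatus had no overlap between their treated and control libraries. Groups did not overlap for 29, 21 and 26 of the 38 genes, respectively. The share of all genes without overlap was not computed, so these counts do not show a trait of these genes.

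Among the carriers, 6 of 12 fell after P. chinensis, 2 after B. chinense and 9 after P. umbellatus, where 10.5%, 0.757% and 17.8% of all genes fell. AHSG encodes fetuin-A, an inhibitor of calcification. It read 441, 410.1 and 432 CPM in the control libraries, 186, 193 and 186 after P. chinensis, 224, 216 and 211 after B. chinense and 163, 151 and 189 after P. umbellatus. Every treated library lay far below every control library, and the P. umbellatus libraries were mostly the lowest. The log2 fold changes were -1.18 ± 0.078, -0.98 ± 0.078 and -1.35 ± 0.079, with edgeR adjusted p of 1.26e-06, 0.000109 and 4.58e-06 (n = 3 per group). ITIH2, a heavy chain of inter-alpha-trypsin inhibitor, read 1148, 1137 and 1164 CPM in the control libraries, 677, 655 and 624 after P. chinensis, 896, 866 and 873 after B. chinense and 928, 1033 and 878 after P. umbellatus. All treated libraries were again below the controls, with the P. chinensis libraries lowest. The log2 fold changes of ITIH2 were -0.82 ± 0.064, -0.39 ± 0.064 and -0.28 ± 0.064, with edgeR adjusted p of 4.52e-06, 0.0112 and 0.00624.

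ALB and AFP are sister genes that lie side by side on chromosome 4. ALB read 4843, 4711 and 4678 CPM in the control libraries, 3002, 3005 and 2840 after P. chinensis, 3817, 3720 and 3769 after B. chinense and 3271, 5040 and 3821 after P. umbellatus. The P. chinensis and B. chinense libraries lay below all controls, whereas P. umbellatus replicate 2 was above them and its other two replicates below. ALB fell with P. chinensis by 0.69 on the log2 scale (SE 0.11, edgeR adjusted p = 0.00119), which is 1.61-fold. It did not pass the test with B. chinense (-0.33 ± 0.11, edgeR adjusted p = 0.226) or P. umbellatus (-0.23 ± 0.11, edgeR adjusted p = 0.129). Without P. umbellatus replicate 2, ALB passed the test in both, at -0.33 with B. chinense and -0.42 with P. umbellatus (edgeR adjusted p = 0.00201 and 0.000218). AFP read 2174, 2196 and 2173 CPM in the control libraries, 1954, 1943 and 1880 after P. chinensis, 2077, 2173 and 2093 after B. chinense and 1963, 2748 and 2168 after P. umbellatus. Its P. chinensis libraries were slightly below the controls, and the highest value of all was again P. umbellatus replicate 2. For AFP the log2 fold changes were -0.18 ± 0.094, -0.045 and 0.072 ± 0.094, with edgeR adjusted p of 0.21, 0.919 and 0.576. AFP also passed the test with P. chinensis without P. umbellatus replicate 2 (-0.18, edgeR adjusted p = 0.00326), in a fit of the 6 libraries compared (-0.18, edgeR adjusted p = 0.000287) and after a correction for GC content and transcript length (-0.28, edgeR adjusted p = 0.000482). Whether ALB and AFP differed from each other in their response was not tested.

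TF, the iron carrier of plasma, fell with P. chinensis and P. umbellatus. It read 655, 665 and 660.3 CPM in the control libraries, 458, 479.5 and 478 after P. chinensis, 624, 632 and 622 after B. chinense and 446, 371 and 449 after P. umbellatus. The P. chinensis and P. umbellatus libraries lay well below all others, with replicate 2 of P. umbellatus the lowest. The log2 fold changes were -0.48 ± 0.07 and -0.64 ± 0.07, with edgeR adjusted p of 0.00043 and 0.000261, and with B. chinense the value was -0.077 ± 0.07 (edgeR adjusted p = 0.756). RBP4 fell with the same 2 extracts. It read 868, 854 and 888 CPM in the control libraries, 734, 710.5 and 736 after P. chinensis, 740.3, 741 and 737 after B. chinense and 675, 750.3 and 693 after P. umbellatus. The B. chinense libraries also lay below all controls, but RBP4 missed the threshold there (-0.23 ± 0.054, edgeR adjusted p = 0.0582). The called changes were -0.26 ± 0.054 with P. chinensis and -0.30 ± 0.054 with P. umbellatus (edgeR adjusted p = 0.00477 and 0.00226). After the correction for GC content and transcript length, RBP4 gave 0.087 with P. umbellatus (edgeR adjusted p = 0.596).

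TTR, which carries thyroxine and retinol-binding protein, was called with P. umbellatus. It read 239, 273 and 273 CPM in the control libraries, 229.9, 212 and 224 after P. chinensis, 244, 257 and 228 after B. chinense and 152, 178 and 214 after P. umbellatus. The P. umbellatus libraries were spread widely but all lay below the lowest control. On the log2 scale TTR gave -0.24 ± 0.11, -0.11 ± 0.11 and -0.53 ± 0.11, with edgeR adjusted p of 0.143, 0.783 and 0.00394. HPX, which binds free haem, read 37.2, 35.6 and 37 CPM in the control libraries, 28.3, 27.6 and 26.4 after P. chinensis, 31.2, 29 and 28.1 after B. chinense and 17.2, 10.4 and 22.9 after P. umbellatus. All treated libraries were below the controls, and P. umbellatus replicate 2 was the lowest. The call was made with P. umbellatus (-1.10 ± 0.19, edgeR adjusted p = 0.00206), and the other values were -0.41 ± 0.18 and -0.31 ± 0.18 (edgeR adjusted p = 0.134 and 0.552). Among the other carriers, AMBP and VTN fell with P. umbellatus, by 0.28 and 0.57 on the log2 scale (edgeR adjusted p = 0.0406 and 0.00864). After the correction for GC content and transcript length, AMBP was called higher (0.16, edgeR adjusted p = 0.0131) and VTN gave -0.006 (edgeR adjusted p = 0.934). AMBP also lost its call when any 1 control replicate or P. umbellatus replicate 1 was left out. SERPINA6, corticosteroid-binding globulin, fell with P. chinensis (-0.60 ± 0.19, edgeR adjusted p = 0.0458) and P. umbellatus (-0.57 ± 0.20, edgeR adjusted p = 0.0413). These calls were lost under 7 of 15 and 8 of 14 alternatives, among them the replicate block and any 1 control replicate left out (edgeR adjusted p up to 0.165 and 0.225).

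The plot of levels in every Huh7 library shows carriers, inhibitors and factor VII side by side.

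**Figure D2:**
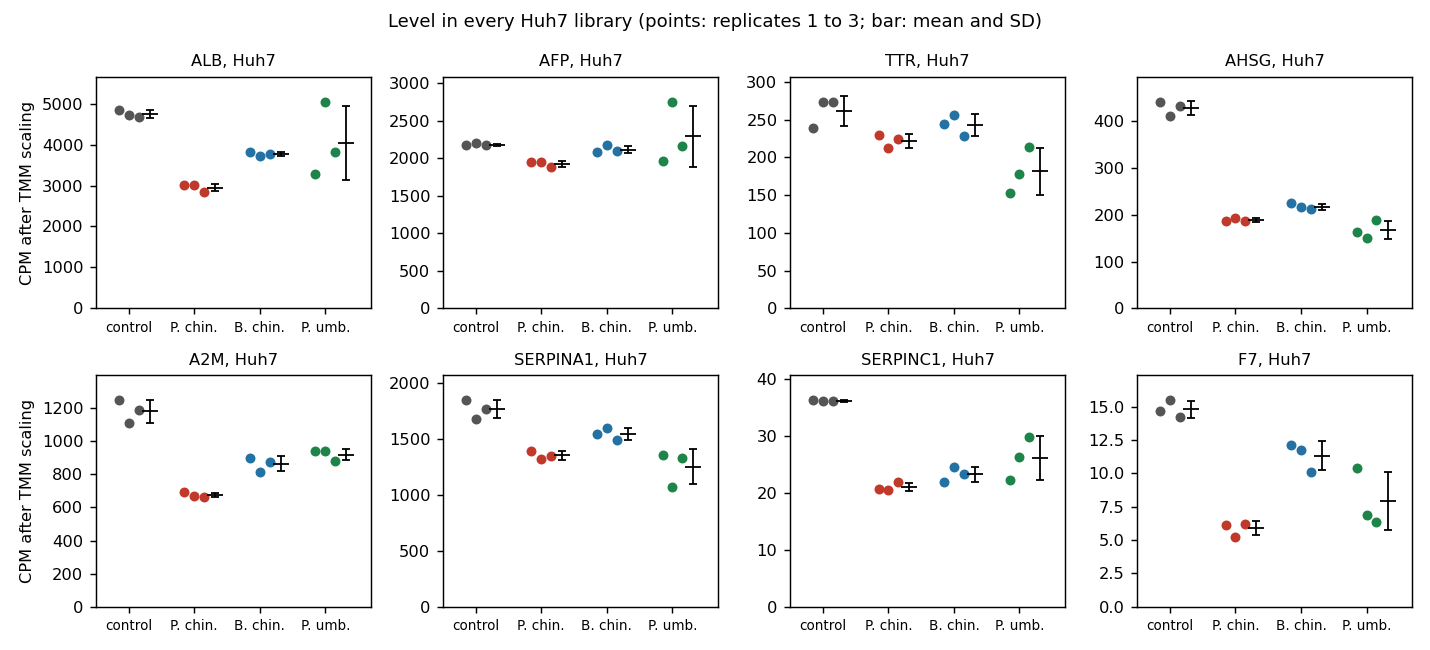
CPM after TMM scaling in every Huh7 library for ALB, AFP, TTR, AHSG, A2M, SERPINA1, SERPINC1 and F7, with the control and the 3 extract groups along each horizontal axis, points for replicates and bars for the mean and SD. The treated AHSG and A2M libraries all lie below the controls, and ALB and AFP are highest among the P. umbellatus libraries in replicate 2.

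Of the 7 protease inhibitors, 5 fell after P. chinensis, 2 after B. chinense and all 7 after P. umbellatus, where 10.5%, 0.757% and 17.8% of all genes fell. A2M, a broad protease trap, read 1247, 1108 and 1189 CPM in the control libraries, 692, 671 and 666 after P. chinensis, 901, 813 and 876 after B. chinense and 941, 938 and 879 after P. umbellatus. The P. chinensis libraries were the lowest, and no treated library reached the lowest control. Fitted log2 fold changes of A2M were -0.81 ± 0.062, -0.45 ± 0.062 and -0.36 ± 0.062, with edgeR adjusted p of 4.34e-06, 0.00394 and 0.00191. SERPINC1 encodes antithrombin, the main inhibitor of thrombin. It read 36.3, 36.1 and 36.1 CPM in the control libraries, 20.7, 20.5 and 21.9 after P. chinensis, 21.9, 24.5 and 23.4 after B. chinense and 22.2, 26.4 and 29.8 after P. umbellatus. The controls were nearly identical and all treated libraries lay below them. The log2 fold changes of SERPINC1 were -0.78 ± 0.11, -0.63 ± 0.11 and -0.46 ± 0.11, with edgeR adjusted p of 0.000285, 0.0124 and 0.0071.

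SERPINA1 fell with P. chinensis and P. umbellatus. It read 1843, 1680 and 1765 CPM in the control libraries, 1393, 1318 and 1346 after P. chinensis, 1539, 1594 and 1488 after B. chinense and 1355, 1069 and 1327 after P. umbellatus. All treated libraries were below the controls, with P. umbellatus replicate 2 the lowest. The values were -0.38 ± 0.081, -0.19 ± 0.081 and -0.50 ± 0.081, with edgeR adjusted p of 0.00536, 0.341 and 0.00152. SERPINF2 encodes alpha-2-antiplasmin, which inhibits plasmin. It read 178, 159 and 163 CPM in the control libraries, 125, 120.3 and 112 after P. chinensis, 159, 146 and 149 after B. chinense and 87.4, 60.6 and 92.3 after P. umbellatus. The P. umbellatus libraries lay under all P. chinensis libraries, which lay under all controls. It fell with P. chinensis (-0.48 ± 0.12, edgeR adjusted p = 0.0141) and P. umbellatus (-1.05 ± 0.12, edgeR adjusted p = 0.000381), and B. chinense gave -0.14 ± 0.12 (edgeR adjusted p = 0.751). The call of SERPINF2 with P. chinensis was lost without P. chinensis replicate 3 or control replicate 1 (edgeR adjusted p up to 0.0632).

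SERPINA3, an acute phase inhibitor, read 12.6, 12.5 and 11 CPM in the control libraries, 10.9, 12.3 and 5.7 after P. chinensis, 5.21, 6.57 and 6.53 after B. chinense and 4.4, 4.9 and 5.4 after P. umbellatus. The B. chinense and P. umbellatus libraries lay below all controls, but the call was made with P. umbellatus alone (-1.27 ± 0.25, edgeR adjusted p = 0.00309). With B. chinense the value was -0.96 ± 0.24 (edgeR adjusted p = 0.0766). SERPIND1, heparin cofactor II, fell by 0.32 with P. chinensis and by 0.24 with P. umbellatus on the log2 scale, the latter call being lost without control replicate 1 or 3 or in a fit of the 6 libraries (edgeR adjusted p up to 0.0936). SERPING1, the C1 inhibitor, was counted 154, 246 and 258 times in the control libraries and 21, 0 and 2 times with P. umbellatus. Its fitted change with P. umbellatus was -3.43 ± 0.74 (edgeR adjusted p = 0.00509), a value that rests on very few counts.

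The fibrinogen genes went against the rest. FGA encodes the alpha chain and read 556, 588 and 546 CPM in the control libraries, 715, 710 and 685 after P. chinensis, 719.9, 714 and 719 after B. chinense and 743, 845 and 700.5 after P. umbellatus. Every treated library was above every control library, and the 3 extracts gave similar levels. For FGA the log2 fold changes were 0.32 ± 0.068, 0.35 ± 0.068 and 0.44 ± 0.068, with edgeR adjusted p of 0.00543, 0.0276 and 0.00123. FGB encodes the beta chain and read 191, 196 and 179 CPM in the control libraries, 309, 297 and 307 after P. chinensis, 254, 264 and 244 after B. chinense and 258, 285 and 227 after P. umbellatus. Again no treated library overlapped the controls, and the P. chinensis libraries were the highest. On the log2 scale FGB gave 0.69 ± 0.079, 0.43 ± 0.079 and 0.44 ± 0.08, with edgeR adjusted p of 8.37e-05, 0.0201 and 0.00226. FGG encodes the gamma chain and read 287, 320 and 292 CPM in the control libraries, 327, 325 and 321 after P. chinensis, 331, 351 and 335 after B. chinense and 323, 487 and 342 after P. umbellatus. Treated libraries were all above the highest control, by little except in P. umbellatus replicate 2. FGG passed the test with P. umbellatus (0.36 ± 0.12, edgeR adjusted p = 0.0383) and not with P. chinensis (0.11 ± 0.12, edgeR adjusted p = 0.571) or B. chinense (0.18 ± 0.12, edgeR adjusted p = 0.634). The call of FGG was lost when any 1 control replicate was left out, in a fit of the 6 libraries and after the GC and length correction (edgeR adjusted p up to 0.55). Without P. umbellatus replicate 2, the change of FGG with P. umbellatus was 0.15 (edgeR adjusted p = 0.048), while FGA and FGB gave 0.36 and 0.36 (edgeR adjusted p = 0.000148 and 0.00102).

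Of the 13 clotting genes, fibrinogen included, 2 rose and 4 fell after P. chinensis, 2 rose after B. chinense, and 3 rose and 4 fell after P. umbellatus. Of all genes tested, 10.5%, 0.519% and 19.3% rose with these extracts, and 10.5%, 0.757% and 17.8% fell. With B. chinense edgeR called 0 of the 13 lower, against 4 at an unadjusted p below 0.05 and 1, F2, with DESeq2. F7, the factor VII that starts the cascade together with tissue factor, read 14.7, 15.5 and 14.2 CPM in the control libraries, 6.14, 5.26 and 6.22 after P. chinensis, 12.1, 11.8 and 10.1 after B. chinense and 10.4, 6.91 and 6.38 after P. umbellatus. All treated libraries were below the controls, and those of P. chinensis were the lowest. Fitted log2 fold changes of F7 were -1.31 ± 0.17, -0.38 ± 0.17 and -0.90 ± 0.18, with edgeR adjusted p of 0.000213, 0.388 and 0.00329. F2 encodes prothrombin. It read 226, 219.9 and 236 CPM in the control libraries, 154, 142 and 149 after P. chinensis, 168, 167 and 170.2 after B. chinense and 152, 103 and 140.5 after P. umbellatus. All treated libraries lay well below all controls. It fell with P. chinensis (-0.62 ± 0.11, edgeR adjusted p = 0.00163) and P. umbellatus (-0.78 ± 0.11, edgeR adjusted p = 0.000775), and B. chinense gave -0.43 ± 0.11 (edgeR adjusted p = 0.0802). PROC, the precursor of the anticoagulant protein C, read 41.6, 45.1 and 43.5 CPM in the control libraries, 27.1, 24.6 and 25.6 after P. chinensis, 36.2, 26.2 and 27.2 after B. chinense and 18.8, 9.51 and 22.4 after P. umbellatus. The P. umbellatus libraries were the lowest and the most spread. PROC fell with P. chinensis (-0.75 ± 0.21, edgeR adjusted p = 0.0246) and P. umbellatus (-1.33 ± 0.22, edgeR adjusted p = 0.00165), and with B. chinense the value was -0.54 ± 0.21 (edgeR adjusted p = 0.31). The call of PROC with P. chinensis was lost when any 1 control or P. chinensis replicate was left out (edgeR adjusted p up to 0.0833).

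F5 encodes factor V, the cofactor that speeds the activation of prothrombin. It read 228, 214 and 224 CPM in the control libraries, 151, 149.6 and 146 after P. chinensis, 201, 179.9 and 184 after B. chinense and 252, 235 and 190.3 after P. umbellatus. The P. chinensis libraries stood apart below all others, and those of P. umbellatus overlapped the controls. F5 fell with P. chinensis (-0.57 ± 0.091, edgeR adjusted p = 0.000848), and the other values were -0.24 ± 0.091 and 0.025 ± 0.091 (edgeR adjusted p = 0.291 and 0.853). F10, factor X, fell with P. umbellatus (-0.59 ± 0.16, edgeR adjusted p = 0.0135), a call lost without control replicate 1, in a fit of the 6 libraries and after the GC and length correction, where it gave -0.036 (edgeR adjusted p = 0.894). PROS1, KNG1, F11, F12 and F13B passed the test with no extract, and their log2 fold changes with P. chinensis were -0.26, -0.23, -0.07, 0.041 and -0.58.

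Of the 6 complement genes, C3 and C5 fell after P. chinensis, C3 after B. chinense, and C3 and C1S after P. umbellatus. The shares of all genes that fell were 10.5%, 0.757% and 17.8%. C3, the component on which all complement pathways converge, read 553, 520.2 and 559 CPM in the control libraries, 363, 346 and 339.6 after P. chinensis, 399, 395 and 405 after B. chinense and 374, 285 and 339.6 after P. umbellatus. No treated library reached the controls. The log2 fold changes of C3 were -0.64 ± 0.084, -0.45 ± 0.084 and -0.71 ± 0.085, with edgeR adjusted p of 0.000229, 0.0223 and 0.000391. C5, which starts the membrane attack complex, read 353, 377 and 358 CPM in the control libraries, 246, 245 and 236 after P. chinensis, 323, 316 and 327 after B. chinense and 363, 506 and 333 after P. umbellatus. The P. chinensis libraries were the lowest, and P. umbellatus replicate 2 was the highest of all. C5 fell with P. chinensis (-0.58 ± 0.12, edgeR adjusted p = 0.00446), with values of -0.17 ± 0.12 and 0.14 ± 0.12 for the other two (edgeR adjusted p = 0.645 and 0.368). C1S, a protease of the first component, fell with P. umbellatus by 0.48 on the log2 scale, a call lost under 6 of 14 alternatives, among them any 1 control replicate left out (edgeR adjusted p up to 0.118). CFI gave 0.06, -0.14 and 0.037, and C1R gave 0.28, -0.67 and -0.99, with no call. C4B was listed at 0 counts in 2 of 3 control libraries and is not compared.

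Among the P. umbellatus libraries of Huh7 cells, replicate 2 differed from its own group by 11.8 and 15.8 times the level of sampling noise, where the other 22 pairs of replicates in both lines lay between 2.7 and 5.11 times. Without it, P. umbellatus called 24 of the 38 genes, 23 of them shared with the 25, with SERPINA6 and C1S lost and ALB gained. Without it, the calls with P. chinensis rose to 24 and those with B. chinense to 16. All Huh7 libraries were scaled and fitted together with a shared estimate of the spread. Which of these steps moved the counts was not tested. The change with P. umbellatus also moved with the GC content of the transcripts, with a Pearson r of -0.53 across the 38 genes and -0.61 across all 13875 genes, which are not independent replicates. With P. chinensis and B. chinense r was -0.01 and -0.02 across the 38. After a correction of every library for GC content and transcript length, AHSG gave -1.05, C3 -0.38, FGA 0.39 and FGB 0.21 with P. umbellatus, and all 4 kept their call. SERPINF2 gave -0.40, F2 -0.31 and PROC -0.80 and also kept it. AMBP turned from lower to higher (0.16), RBP4 changed sign (0.087) and lost its call, VTN, SERPINA6, F7, F10 and FGG lost theirs, and ALB, AFP, F5, PROS1 and KNG1 became called. VTN gave -0.006 and FGG 0.059 after that correction. The part of GC content in the responses to P. umbellatus was not tested beyond this.

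**Figure D3:**
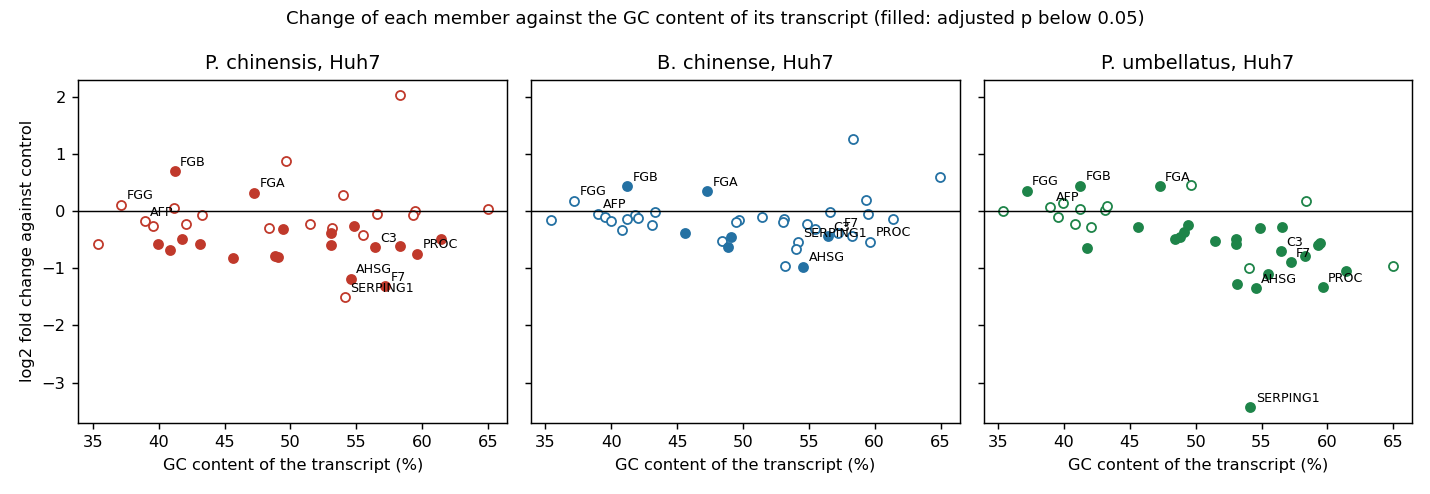
GC content of the transcript in percent against the log2 fold change in Huh7 cells for the 38 plasma protein genes, 1 panel per extract. Filled points mark genes called changed. The points slope downward with P. umbellatus (r = -0.53 over the 38 genes) and are level with P. chinensis (r = -0.01).

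Direct comparisons between extracts in Huh7 cells showed how their responses differed, although the doses are not given and may not match. P. chinensis and B. chinense differed for 5 of the 38 genes, where 7.81% of all genes differed. All 5 were lower with P. chinensis, namely TF (-0.41 ± 0.07), ITIH2 (-0.43 ± 0.064), A2M (-0.35 ± 0.062), F5 (-0.34 ± 0.091) and F7 (-0.93 ± 0.17). The call of F5 was lost when any 1 replicate of either extract was left out and with upper quartile factors (edgeR adjusted p up to 0.146). P. chinensis and P. umbellatus differed for 12, where 35.4% of all genes differed. HPX (0.68), VTN (0.57), SERPINA3 (0.97), SERPINF2 (0.57), FGB (0.25) and F10 (0.52) were higher with P. chinensis. ALB (-0.46), ITIH2 (-0.54), A2M (-0.44), SERPINC1 (-0.32), F5 (-0.60) and C5 (-0.72) were lower. Of these 12, SERPINC1 lost its call under 8 of 13 alternatives (edgeR adjusted p up to 0.172), FGB under 5, F10 under 4, and ALB, HPX, VTN and SERPINA3 under 1, the fit of the 6 libraries. ITIH2, A2M, SERPINF2, F5 and C5 held under all 13. Between B. chinense and P. umbellatus 13 genes differed, where 27.3% of all genes differed, and all 13 were lower with P. umbellatus. Among them were TF (0.57 ± 0.07, B. chinense minus P. umbellatus), SERPINF2 (0.91 ± 0.13), AHSG (0.37 ± 0.078) and HPX (0.78 ± 0.19). In a fit of the 6 libraries of this pair alone, none of the 13 kept its call with edgeR, 15 of the 38 had an unadjusted p below 0.05, and DESeq2 with all libraries called 16.

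FGA did not differ between any pair of extracts at the threshold. Its log2 differences were -0.028 ± 0.068 for P. chinensis minus B. chinense, -0.12 ± 0.068 for P. chinensis minus P. umbellatus and -0.088 ± 0.068 for B. chinense minus P. umbellatus. The edgeR adjusted p were 0.864, 0.205 and 0.351. SERPINA1, AFP and TTR differed by -0.19 ± 0.081, -0.13 ± 0.094 and -0.13 ± 0.11 between P. chinensis and B. chinense, without a call. A missed threshold does not show that the extracts act alike on these genes.

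A549 cells expressed few of these genes at depth. Over the 12 A549 libraries, 9 of the 38 had a mean of 50 counts or more, namely C5, F5, C3, TF, C1S, PROS1, VTN, FGA and C1R. Another 12 had a mean above 5 counts, 16 a mean of 5 or less, and SERPING1 had no count in any library. Per kb of coding sequence, C5 was highest in control A549 cells at 17.6 ± 2.32 CPM per kb (SD, n = 3), followed by TF at 11.5 ± 1.36, C1S at 9.96 ± 1.69, VTN at 9.89 ± 1.43 and FGA at 9.07 ± 0.29. The ranges of C1S and VTN overlapped each other and those of TF and FGA, while every TF library lay above every FGA library. The main transcript of TF has 20166 bases with 2094 coding, so its rank depends on the use of coding length. In a fit of both lines, 35 of the 38 were higher in control Huh7 than in control A549 cells and 2 were lower, where 70.7% of all genes differed in either direction. The 2 that were lower in Huh7 cells were C1R (-2.59 ± 0.34) and C1S (-0.57 ± 0.18), the paired proteases of the first complement component.

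For genes with 3 counts or less in every control A549 library, only a lower bound on the difference is given, against 3 counts in the smallest library (0.373 CPM). ALB was at least 12800-fold higher in Huh7 cells, AFP at least 5880-fold and A2M at least 3190-fold. SERPIND1 was at least 226-fold higher, HPX at least 98.6-fold, SERPINC1 at least 97.5-fold and CFI at least 58.0-fold. F10, SERPING1, F13B, F11 and HP had bounds of 30.9-fold, 30.2-fold, 15.2-fold, 11.5-fold and 3.53-fold. SERPINA1, AHSG and TTR had 1 to 8 counts in each control A549 library and are given no ratio. Of the genes with more counts in A549 cells, ITIH2 had a ratio of means of 471, AMBP of 202 and RBP4 of 191. The ratios were far smaller for FGA (32.6), FGB (30.5), C3 (30.3) and TF (27.7), and the smallest above 1 were those of F5 (4.42) and C5 (4.16).

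**Figure D4:**
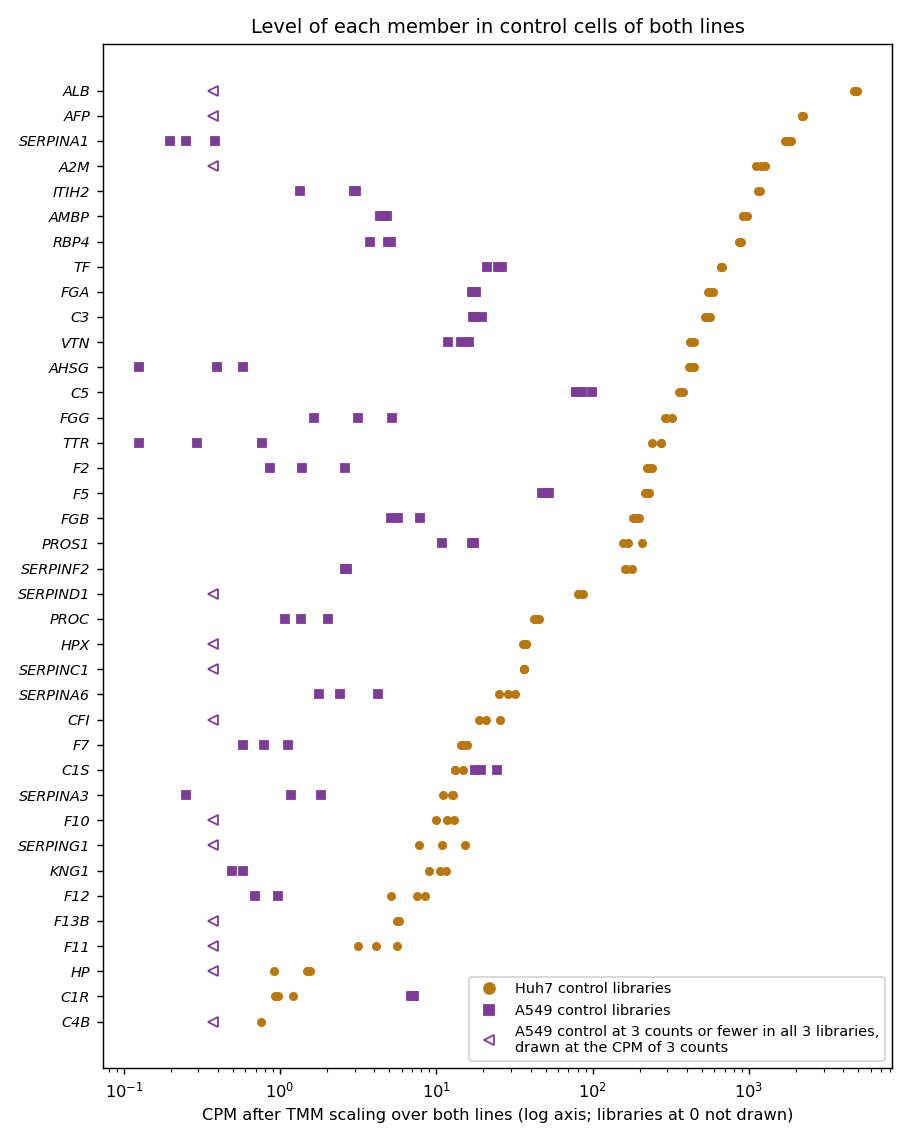
CPM of the plasma protein genes in control A549 and control Huh7 cells on a log scale. Nearly all genes are higher in Huh7 cells, with F5 and C5 among the closest between the lines. C1S and C1R are higher in A549 cells.

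In A549 cells 21 of the 38 genes were tested. With P. chinensis 1 rose and 3 fell, where 15.8% of the 13633 genes tested rose and 17.1% fell. With B. chinense 1 rose and 3 fell (13.1% and 15% of all genes), and with P. umbellatus 1 rose and 2 fell (13.4% and 14.8%). The medians over the 21 were -0.36, -0.34 and -0.082, and those over all genes were 0.014, -0.0018 and -0.012. The gene that rose was C3 each time, and FGA and FGB fell each time. FGA read 17.6, 16.9 and 18 CPM in the control libraries, 4.33, 7.39 and 5.37 after P. chinensis, 8.49, 7.24 and 8.19 after B. chinense and 5.38, 6.17 and 5.7 after P. umbellatus. Every treated library was far below every control library. For FGA the log2 fold changes were -1.58 ± 0.18, -1.12 ± 0.18 and -1.58 ± 0.18, with edgeR adjusted p of 1.15e-05, 0.000327 and 1.57e-05. FGB read 5.19, 5.71 and 7.91 CPM in the control libraries, 1.17, 1.7 and 0.37 after P. chinensis, 2.43, 0.756 and 1.46 after B. chinense and 0.947, 1.75 and 1.74 after P. umbellatus. Its treated libraries again lay below the controls, although the counts behind them were few, 10, 17 and 4 with P. chinensis. On the log2 scale FGB gave -2.35 ± 0.45, -1.89 ± 0.45 and -1.98 ± 0.44, with edgeR adjusted p of 0.00107, 0.00566 and 0.00352. FGG gave -1.37 ± 0.64, -1.36 ± 0.65 and -1.33 ± 0.63 and was not called (edgeR adjusted p = 0.121, 0.143 and 0.138).

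C3 in A549 cells read 17.7, 17.3 and 19.6 CPM in the control libraries, 38.5, 29.7 and 35.8 after P. chinensis, 31.2, 27.8 and 19.1 after B. chinense and 32.2, 42.8 and 38.3 after P. umbellatus. The treated libraries were above the controls except 1 B. chinense library, which lay within their range. Fitted log2 fold changes of C3 were 0.92 ± 0.16, 0.52 ± 0.17 and 1.04 ± 0.16, with edgeR adjusted p of 0.000547, 0.0311 and 0.000235. The call with B. chinense was lost under 7 of 14 alternatives (edgeR adjusted p up to 0.147), namely the fit of its 6 libraries, the GC and length correction, the replicate block, and leaving out B. chinense or control replicate 1 or 2. C5 read 101, 85.7 and 78.5 CPM in the control libraries, 47.4, 63.3 and 50.3 after P. chinensis, 69, 62.5 and 61.5 after B. chinense and 68.5, 79.6 and 73.9 after P. umbellatus. It fell with P. chinensis (-0.71 ± 0.11, edgeR adjusted p = 0.000208) and B. chinense (-0.45 ± 0.11, edgeR adjusted p = 0.00763), and P. umbellatus gave -0.26 ± 0.11 (edgeR adjusted p = 0.101). TTR, the carrier called with P. umbellatus in Huh7 cells, read 0.127, 0.295 and 0.771 CPM in control A549 libraries, which rests on 1, 3 and 8 counts. ALB was counted 1, 0 and 0 times in the control A549 libraries and AFP 0, 3 and 0 times.

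A test of the change in Huh7 minus that in A549 cells compared the lines directly. With P. chinensis it passed the test for 5 of the 21 genes, where 19.6% of 12924 genes passed. With B. chinense 5 passed (11.6% of all genes), and with P. umbellatus 9 (34.4%). FGA differed by 1.85 ± 0.14, 1.43 ± 0.14 and 1.94 ± 0.14 on the log2 scale, with edgeR adjusted p of 6.93e-09, 7.41e-07 and 1.11e-08. FGB differed by 3.06 ± 0.33, 2.32 ± 0.32 and 2.44 ± 0.30, with edgeR adjusted p of 7.07e-07, 3.93e-05 and 6.19e-06. C3 differed the other way, by -1.61 ± 0.18, -1.01 ± 0.19 and -1.83 ± 0.18, with edgeR adjusted p of 1.49e-06, 0.000825 and 3.75e-07. The 3 genes thus moved in opposite directions in the lines with every extract. C5 fell with P. chinensis in both lines, and the difference of its change was 0.082 ± 0.17 (edgeR adjusted p = 0.798).

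**Figure D5:**
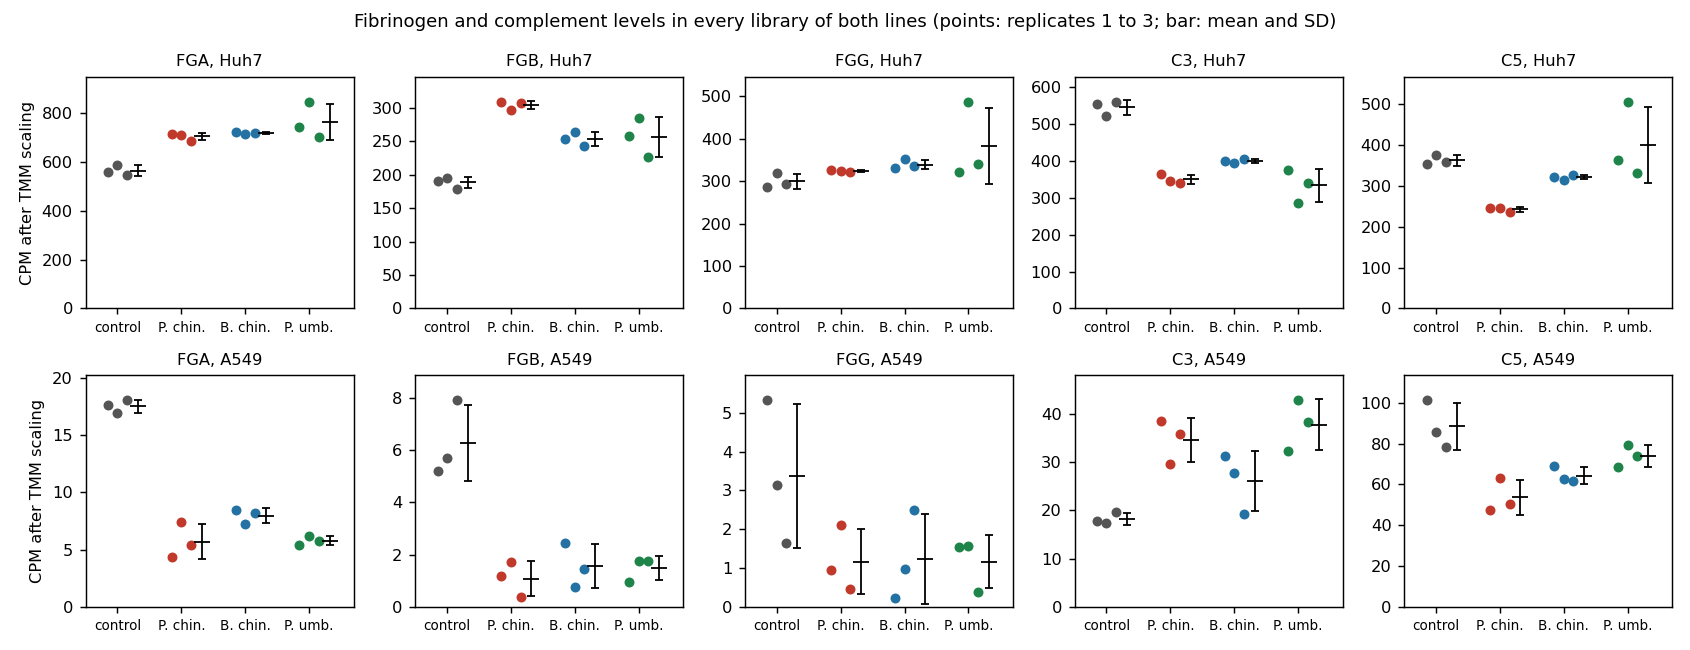
CPM after TMM scaling within each line in every library for FGA, FGB, FGG, C3 and C5 in Huh7 and A549 cells. Points are replicates and bars the mean and SD. FGA and FGB are above control in treated Huh7 libraries and below it in treated A549 libraries, and C3 shows the reverse.

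Other genes of the same pathways were taken from lists outside the 38. Their counts stand beside the shares of all genes that rose and fell, which in Huh7 cells were 10.5% and 10.5% for P. chinensis, 0.519% and 0.757% for B. chinense, and for P. umbellatus 19.3% and 17.8%. Of 17 other coagulation and fibrinolysis genes tested in Huh7 cells, 3 rose and 5 fell after P. chinensis, 1 fell after B. chinense, and 3 rose and 5 fell after P. umbellatus. CPB2, which slows fibrinolysis, fell with all 3 extracts (-1.18, -0.67 and -0.85). TFPI2, an inhibitor of serine proteases, rose with P. chinensis (2.08) and P. umbellatus (0.85). Of 15 other complement genes, 3 rose and 3 fell after P. chinensis, 2 fell after B. chinense, and 3 rose and 5 fell after P. umbellatus. MASP1, a protease of the lectin pathway, fell with P. chinensis (-0.73) and B. chinense (-0.36). CD59, which blocks the membrane attack complex, rose with P. chinensis (0.86) and P. umbellatus (0.44). In A549 cells 9 of 15 other coagulation genes rose after P. chinensis, 8 after B. chinense and 9 after P. umbellatus, and 1 fell each time, where 15.8%, 13.1% and 13.4% of all genes rose. PLAU, the urokinase activator of plasminogen, rose there by 1.33, 1.13 and 1.37.

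Of 7 acute phase genes outside the 38 in Huh7 cells, 1 rose and 3 fell after P. chinensis, 2 fell after B. chinense and 5 fell after P. umbellatus. ORM2, an acid glycoprotein nearly identical to ORM1, fell with all 3 extracts (-0.60, -0.79 and -0.98), which sets it apart in sign from FGA and FGB. SOCS3, a target and inhibitor of STAT3 signalling, rose with P. chinensis (1.75), where CP, a copper carrier, fell (-0.99). Of 13 other carriers and secreted liver proteins, 1 rose and 4 fell after P. chinensis and 6 fell after P. umbellatus. For B. chinense edgeR called 0, against 4 at an unadjusted p below 0.05 and 2 with DESeq2, all lower. A1BG fell with P. chinensis (-1.35) and P. umbellatus (-1.57).

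Of 21 regulators of liver genes in Huh7 cells, 4 rose and 9 fell after P. chinensis, and 5 rose and 9 fell after P. umbellatus. For B. chinense edgeR called 0, against 1 higher and 5 lower at an unadjusted p below 0.05 and 1 lower with DESeq2. CEBPA, a C/EBP factor, fell with P. chinensis (-0.73) and P. umbellatus (-1.23). Of the other C/EBP factors listed, CEBPB fell with P. chinensis (-0.65) and CEBPD rose (0.74), so the family did not move together. NR1H4, the bile acid receptor, fell with P. chinensis (-0.82), where STAT3 rose (0.50). FOXA3 (-0.88) fell with P. umbellatus. In A549 cells HNF4A fell by 1.34, 1.18 and 1.23 on the log2 scale with the extracts in the order given above. STAT3 rose there with all 3 (0.86, 0.69 and 0.66). Of 15 genes for entry into the secretory pathway in Huh7 cells, 0 rose and 4 fell after P. chinensis, and 3 rose and 4 fell after P. umbellatus. Over all genes 10.5% rose and 10.5% fell with the former, and 19.3% rose and 17.8% fell with the latter. For B. chinense edgeR called 0 of the 15, against 2 at an unadjusted p below 0.05 and 1 with DESeq2, all lower.

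The lines were checked against marker genes outside the 38. In Huh7 cells 11 of 12 hepatocyte markers reached a mean of 1 CPM, against 5 of 12 in A549 cells, where APOC3 was at 0 in all libraries. The summed CPM of these markers in Huh7 cells ran from 12580 to 12950 in control and from 7193 to 7716 after P. chinensis. It ran from 11730 to 12290 after B. chinense and from 12310 to 15770 after P. umbellatus. APOB gave most of this sum, with a mean of 142200 counts over the Huh7 libraries, against 9397 for APOA2. Of the 11 markers tested in Huh7 cells, 3 fell after P. chinensis, 1 after B. chinense and 7 after P. umbellatus, and 0 rose. Over all genes 10.5%, 0.757% and 17.8% fell. In A549 cells the sum was 271.9 to 285.7 in control and 105.6 to 143.8 over the treated libraries. Of 8 markers of A549 cells with a row, all 8 reached 1 CPM in A549 and 5 in Huh7 cells, whose sums ran from 2482 to 5581 over all groups. Of 3 leukocyte markers 2 reached 1 CPM in Huh7 cells, with sums of 704.5 to 746.7 in control and 365.2 to 498.0 over the treated groups. LYZ gave nearly all of this sum, with a mean of 8007 counts over the Huh7 libraries, against 36.25 for PTPRC and 8.75 for CD14. Of 5 fibroblast markers 4 reached 1 CPM in Huh7 cells, with sums from 7.78 to 29.2. So did 1 of 1 endothelial marker, PECAM1, with 32.9 to 57.9. The part of these differences in the changes of the plasma protein genes was not tested. Library totals ran from 7182444 to 24345541 counts in Huh7 and from 6803704 to 17175624 in A549 cells, and the P. umbellatus and B. chinense libraries of Huh7 cells were less deep than all controls, so low genes such as F11, F12 and HP rest on fewer counts there.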

How the data were processed

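Stranded libraries of ribosome-depleted total RNA were sequenced as paired ends on a NovaSeq6000. The authors checked reads with FastQC, quantified them with kallisto against the Ensembl GRCh38.p13 cDNA and kept protein-coding genes with an average count above 5. The deposited values are estimated counts, rounded to whole numbers and not normalized. How transcripts were summed per gene is not given in the sources used here. Reads shared by near-identical genes are divided by estimation, so C4B, HP, ORM1 and ORM2 are uncertain.

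Counts were analysed in R 4.3.3. Groups were taken from the labels. For each line, genes with a mean above 5 counts over 12 libraries were scaled by TMM and fitted in edgeR 4.0.16 (quasi-likelihood, prior count 2, 1 coefficient per group). The difference between lines was tested in all 24 libraries on genes tested in both. Calls used a Benjamini-Hochberg adjusted p below 0.05, and the standard error is the absolute log2 fold change divided by the square root of F. A group with 3 counts or less in every library was taken to be at the floor of detection. The GENCODE release 44 annotation gave symbols and coding lengths, with 14584 of 14585 identifiers matched.

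The genes and lists were chosen with earlier results of these data known. Values in every library are given for the 20 genes with the smallest adjusted p among those changed in Huh7 cells (mean of at least 50 counts), for those changed in A549 cells with that mean, and for ALB, AFP, TTR, FGA, FGB and FGG. Other lists are named by up to 3 changes in each direction, of which some are given. The alternatives were DESeq2 1.42.0, other size factors, other filters, the 6 libraries of a comparison, the replicate number as a block, each replicate left out, and a GC content and length correction. Of 36 correlations between same-numbered libraries, from -0.062 to 0.052, 0 exceeded 0.1, so the numbers do not pair libraries. Nothing says that replicates were separate cultures, so p-values measure the spread between these libraries, which may be technical. The analysis was tested on simulated data. Library totals, from 6803704 to 24345541 counts, limit precision for low genes.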

Additional observations from a re-analysis of the deposited data

Results flagged for a closer look

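The results singled out here are the genes whose change differed between Huh7 and A549 cells in a direct test of that difference (edgeR's quasi-likelihood test, adjusted over 12924 genes). Values are the log2 change in Huh7 minus that in A549 cells, and each of the 3 comparisons shares its control libraries with the others. Among the genes called, FGA, FGB and C3 gave the largest differences with every extract. FGA differed by 1.85 after P. chinensis, 1.43 after B. chinense and 1.94 after P. umbellatus. FGB differed by 3.06, 2.32 and 2.44, and FGG with P. umbellatus by 1.52 (edgeR adjusted p = 0.0237). C3 differed by -1.61, -1.01 and -1.83.

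TF was the other gene called with every extract, at -0.58, -0.46 and -0.91 (edgeR adjusted p = 0.00487, 0.0377 and 6.36e-05). F5 differed by -0.77 with P. chinensis and -0.45 with B. chinense (edgeR adjusted p = 0.000236 and 0.0308). With P. umbellatus the difference was -1.25 for TTR, -1.06 for SERPINF2, -1.42 for PROC and -0.68 for PROS1 (edgeR adjusted p = 0.0427, 0.00573, 0.0111 and 0.0319). In A549 cells TTR, SERPINF2, PROC and FGG had a mean below 50 counts. FGA, FGB and C3 held under every alternative with each extract, as did TF with P. chinensis and P. umbellatus, F5 with P. chinensis and SERPINF2. TF with B. chinense lost its call under 11 of 19 alternatives, among them the replicate block and any 1 Huh7 control or B. chinense replicate left out (edgeR adjusted p up to 0.125), and F5 with B. chinense under 8 of 19 (up to 0.0877). With P. umbellatus TTR lost it under 7 of 17 (up to 0.174), P. umbellatus replicate 2 of Huh7 cells left out among them, PROS1 under 7 of 18 (up to 0.119), FGG without A549 control replicate 1 or P. umbellatus replicate 3 (up to 0.132) and PROC without A549 P. umbellatus replicate 2 (0.0599). The values of TTR in control A549 cells rest on 1, 3 and 8 counts.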

How the results depend on the processing

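Counts of called genes stayed within 1.5 times the main count under most alternatives. Leaving out 1 replicate at a time gave 16 to 24 calls with P. chinensis (19 in the main fit), 2 to 16 with B. chinense (7) and 19 to 24 with P. umbellatus (25) in Huh7 cells. In A549 cells it gave 4 to 5 (4), 3 to 5 (4) and 3 to 4 (3). It gave 4 to 5 for P. chinensis against B. chinense (5), 10 to 19 for P. chinensis against P. umbellatus (12) and 7 to 17 for B. chinense against P. umbellatus (13). It gave 5 to 7 (5), 3 to 7 (5) and 7 to 10 (9) for the difference between lines, and 36 to 37 (37) between controls. The count with B. chinense was lowest without B. chinense replicate 2 and highest without P. umbellatus replicate 2. The count for B. chinense against P. umbellatus was lowest without B. chinense replicate 1 and highest without P. umbellatus replicate 3, which also gave the highest for P. chinensis against P. umbellatus. Fitted on the 6 libraries compared, the counts were 18 with B. chinense, 16 with P. umbellatus, 15 for P. chinensis against B. chinense, 5 for P. chinensis against P. umbellatus and 0 for B. chinense against P. umbellatus. DESeq2 gave 9 for P. chinensis against B. chinense, and without a filter on low counts 8 differed between lines with P. chinensis, with ALB, F7 and SERPINA1 added. The correction for GC content and transcript length, chosen after seeing the data, gave 14 with B. chinense in Huh7 cells. After it the change with P. umbellatus was -0.19 for AFP, 0.087 for RBP4 and 0.16 for AMBP, against 0.072, -0.30 and -0.28 in the main fit, and leaving out 1 replicate moved AFP from -0.079 (without P. umbellatus replicate 2) to 0.17 (without P. umbellatus replicate 1). The cause of these shifts was not tested. Of 111 calls on single genes, 64 held under every alternative run, and over 1633 single results 1453 held, 178 lost the call and 2 reversed. Same-numbered replicates did not deviate together, so the replicate number is no pairing. With it as a replicate block the counts were 18, 7 and 25 in Huh7 and 4, 3 and 3 in A549 cells, 5, 14 and 14 between extracts, 5, 4 and 9 between lines and 37 between controls. Summing C4A with C4B was not run, since C4A was not analysed here.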

Other observations

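F7 was left out of the tests in A549 cells because its mean was 5 counts or less. It was counted 9, 8 and 6 times in the control libraries, 0, 0 and 0 times after P. chinensis, 3, 1 and 1 after B. chinense and 1, 1 and 1 after P. umbellatus. No treated library reached the lowest control. Without the filter on low counts, F7 was called lower with P. chinensis and P. umbellatus in A549 cells, as it was in Huh7 cells. KNG1 was counted 0, 5 and 6 times in the control A549 libraries, 3, 4 and 0 times after P. chinensis, 1, 0 and 0 after B. chinense and 5, 0 and 0 after P. umbellatus, so the groups overlapped.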
